A study of Pomacea canaliculata with 34 samples.

Results

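The first sampled step in the development of the apple snail Pomacea canaliculata was described by setting whole embryos of Stage 3 against whole embryos of Stage 2. The comparison rests on 6 of the 34 libraries of the series, 3 of Stage 3 and 3 of Stage 2, chosen by the stage named in the sample titles. The series follows polyadenylated RNA of this freshwater snail, studied for the regeneration of its camera-type eyes, through Stage 10 and the hatchling. Both groups share the species, the whole-animal source and the extraction of RNA with Trizol, and no treatment or genetic change is named for either. Not given in the sources used here are strain, age in hours, clutch and the number of embryos per library. The p-values thus measure the spread among libraries of a stage, pooled over all 34 libraries of the series, and that spread may be technical.

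In animals the youngest embryo lives on RNA that the mother laid down in the egg. This maternal RNA is later cleared while the embryo's own genome is switched on, a change of hands known as the maternal-to-zygotic transition. The place of Stage 2 and Stage 3 relative to it is not given in the sources used here. In RNA of whole embryos, fewer cells of a type and less RNA per cell cannot be told apart.

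Genes are known here by LOC identifier alone, without product names. No gene is therefore given a function, and the labelled source could not be checked against marker genes. Each Stage 3 library held 21409004 to 22149128 reads in genes, and each Stage 2 library 16690906 to 20251203. Levels are given as CPM, a gene's counts relative to its library total, scaled between libraries by TMM, a method that assumes most genes are unchanged. Spearman correlations over the 17441 genes tested were 0.985 to 0.989 among Stage 3 libraries and 0.981 to 0.986 among Stage 2 libraries. Between the stages they were lower, at 0.958 to 0.972.

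Many genes of low level rose by large factors at Stage 3, while many abundant genes fell by small factors. At an adjusted p under 0.05 (edgeR quasi-likelihood test, Benjamini-Hochberg adjustment), 6797 of 17441 genes changed, or 39%. Of all tested genes, 3960 rose (22.7%) and 2837 fell (16.3%). The genes that rose had a median log2 fold change of 0.96 and a median level of 17.6 CPM at Stage 3, against 8.07 CPM at Stage 2. The genes that fell had a median log2 fold change of -0.46 and a median level of 48.9 CPM at Stage 3, against 66.1 CPM at Stage 2.

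Large changes were mostly rises. Changes of 2-fold or more were estimated for 1931 of the genes that rose (11.1% of all tested) and for 429 of those that fell (2.46% of all tested). These make up 48.8% of the rises and 15.1% of the falls. A change of 4-fold or more was estimated for 1041 rises and 160 falls, and one of 16-fold or more for 321 rises and 31 falls. The 2-fold line cuts through a continuum, with log2 values just inside and just outside it of 1.00056 and 0.999954 among the rises.

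Part of these large changes rests on few reads. Among the genes that rose 2-fold or more, 146 had no read in any Stage 2 library, and 261 had under 30 reads over the 6 libraries. Among those that fell 2-fold or more, 21 had no read in any Stage 3 library, and 59 had under 30 reads over the 6 libraries. Over the genes with a mean of 1 CPM or more in the 6 libraries, the counts were 1203 rises and 258 falls of 2-fold or more. With genes of no read set to the bound that 3 reads over the stage allow, the median absolute log2 fold change was 1.97 in place of 2.12 for the rises and 1.68 in place of 1.72 for the falls.

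**Figure D1:**
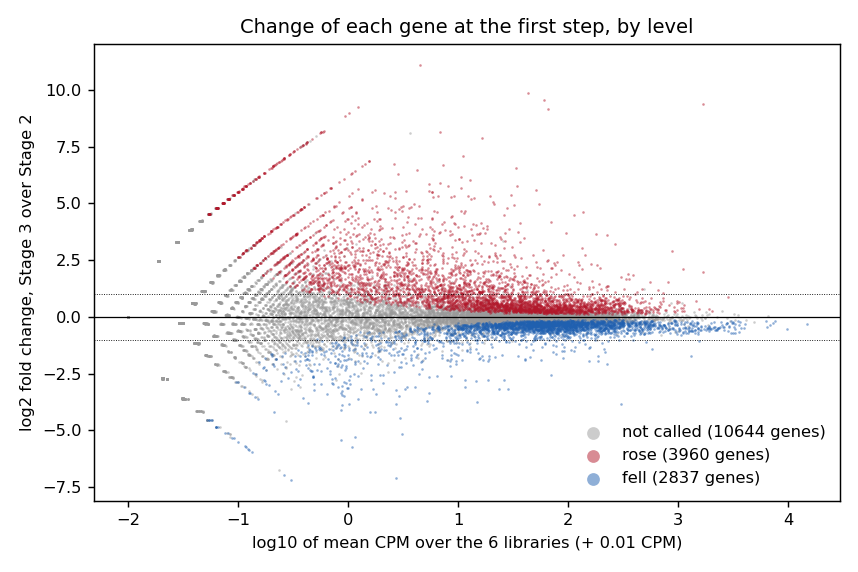
Each point is 1 of the 17441 tested genes, with the log10 of its mean CPM over the 6 libraries on the horizontal axis and its log2 fold change, Stage 3 over Stage 2, on the vertical axis. Red points rose, blue points fell and grey points were not called, the dotted lines mark 2-fold changes, the slanted bands on the left are genes with few reads, and the points at the right end lie mostly below the zero line.

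The direction of change followed the level of the gene. Of the 170 genes with a mean of 1000 CPM or more over the 6 libraries, 116 fell (68.2%) and 14 rose (8.24%). At 100 to 1000 CPM, 829 of 2361 genes fell (35.1%) and 544 rose (23%). At 1 to 10 CPM the order was turned, with 307 of 3170 genes lower at Stage 3 (9.68%) and 1065 higher (33.6%). The genes that rose in that class had a median log2 fold change of 1.46, and those that fell had a median of -1.05. At 1000 CPM or more the medians were 0.46 and -0.48, so called changes were smaller there in both directions. These medians cover called genes only, and the size of change that can be called depends on the number of reads. Under 1 CPM, 728 of the 732 rises and 171 of the 174 falls were of 2-fold or more.

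Part of this order depended on the scaling. Over all tested genes, the median log2 fold change was 0.02 with TMM, 0.00 with the RLE factors and 0.12 with library totals. At 1000 CPM or more the falls led under each, with 116, 123 and 99 falls against 14, 13 and 19 rises. At 1 to 10 CPM the rises led under each, with 1065, 1002 and 1164 rises against 307, 376 and 224 falls. In the classes between, the direction of the excess flipped. With library totals 733 genes rose and 592 fell at 100 to 1000 CPM, and with RLE 1350 rose and 1870 fell at 10 to 100 CPM, against 1605 and 1411 with TMM. Over all levels 58.3% of the calls rose with TMM, 49.3% with RLE and 71.1% with library totals.

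**Figure D2:**
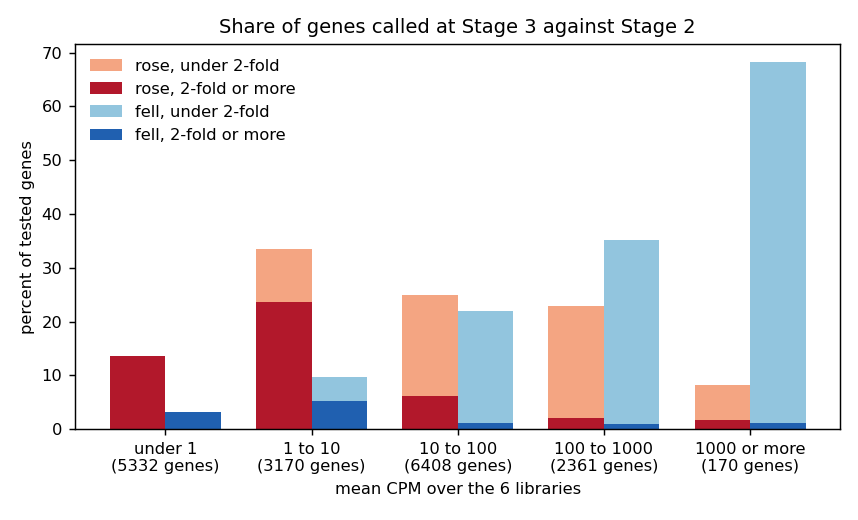
Bars give the percent of tested genes called at Stage 3 against Stage 2 in 5 classes of mean CPM over the 6 libraries, red for genes that rose and blue for genes that fell, with the dark part of each bar for changes of 2-fold or more. The red bar is highest at 1 to 10 CPM (33.6%) and the blue bar at 1000 CPM or more (68.2%), under TMM scaling.

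Called genes were mostly separated library by library. Every Stage 3 library lay above every Stage 2 library in 3565 of the 3960 genes that rose, against 24.3% of all tested genes. Every Stage 3 library lay below every Stage 2 library in 2547 of the 2837 genes that fell, against 19% of all tested genes. These shares follow from the calling itself and are given as a description.

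The pool of RNA moved as a whole. For a pair of libraries, the part of the reads that would have to change gene to turn one into the other was 12.2% on average over the 9 pairs of a Stage 3 and a Stage 2 library, with a range of 10.7% to 14.3%. Among the Stage 3 libraries it was 4.10% to 4.91% and among the Stage 2 libraries 4.18% to 5.53%, so the ranges did not overlap. Replicate 1 of Stage 2 stood farthest from the Stage 3 libraries, at 13.8% on average, and replicate 3 nearest, at 11.1%. At the other steps between neighbouring stages this mean ran from 5.58% for Stage 6 against Stage 5 to 13.7% for Stage 8 against Stage 7. No test was made of that difference between steps.

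Many genes shared in this movement. The 10 genes of largest loss carried 11.2% of the total loss of read share, the 100 of largest loss 43.9% and the 1000 of largest loss 85.4%. On the side of the gains the same numbers of genes carried 9.71%, 29% and 69.5%. Genes at 1000 CPM or more made up 45.7% of the loss and 13.5% of the gain.

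Genes that rose took 22.1%, 22.7% and 21.9% of the reads of the Stage 3 libraries, against 12.5%, 13.7% and 14.2% in Stage 2. Genes that fell took 40.6%, 39.7% and 40.8% at Stage 3, against 52.6%, 50.3% and 50.02% at Stage 2. The stages did not overlap in either share. The genes were chosen by these same libraries, so that separation follows from the choice and is given as a description. The changes of 2-fold or more held a small share of the pool at both stages. Their rises held 4.15% ± 0.144 of the reads at Stage 3 and 1.07% ± 0.197 at Stage 2, and their falls held 0.490% ± 0.00491 at Stage 3 and 1.24% ± 0.104 at Stage 2 (SD, n = 3 each). The total gain of read share over all genes was 11.5 percentage points, so these rises were no small part of the movement.

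More genes were read at Stage 3 when all 6 libraries were thinned to 16690906 reads. With 10 reads or more per gene, 12571, 12807 and 12641 genes were detected at Stage 3, against 12048, 12053 and 12143 at Stage 2. The means were 12673 ± 121 and 12081 ± 53.5 (SD, n = 3 each), a difference of 592 genes, and every Stage 3 library was above every Stage 2 library. The two-sided exact permutation test gave p = 0.1, the smallest that 3 against 3 libraries allow, so it could not pass 0.05.

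Switches from no reads to a clear level were rare. No gene without reads at Stage 2 reached 10 CPM in each Stage 3 library, and 3 such genes reached 1 CPM in each. No gene without reads at Stage 3 had even 0.5 CPM in each Stage 2 library. The 3 genes are named here because their count is small, after their values were seen. LOC112577370 had 13.1, 6.72 and 6.89 CPM in the Stage 3 libraries, against 0 of 55988658 reads at Stage 2, which allows up to 3 reads. Set against those 3 reads over the stage, its Stage 3 mean of 8.91 ± 3.64 CPM (n = 3) was at least 132-fold higher. That bound covers the Stage 2 side only, and not the spread among the Stage 3 libraries. LOC112577370 went on to 55.3 ± 6.89 CPM at Stage 4 (n = 3) and 163 ± 27.2 CPM in the hatchling (n = 4).

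LOC112564621 had 3.78, 2.22 and 1.29 CPM at Stage 3 and no read at Stage 2, its mean being at least 36.03-fold higher by the same bound. LOC112563670 had 1.37, 3.26 and 1.46 CPM at Stage 3 and none at Stage 2, its mean being at least 30.1-fold higher. Their later courses differed in level. LOC112564621 stood between 4.47 and 8.08 CPM in its stage means from Stage 4 to Stage 10. In the hatchling it had 14.8 ± 8.64 CPM (n = 4), higher than at Stage 4 (log2 fold change 1.11, edgeR adjusted p = 0.00342). LOC112563670 stayed at or under 1.86 CPM from Stage 4 to Stage 8. It then had 13.8 ± 5.22 CPM at Stage 9 and 13.1 ± 2.57 CPM at Stage 10 (n = 4 each). In the hatchling it had 63.1 ± 17.1 CPM (n = 4), also higher than at Stage 4 (log2 fold change 5.28, edgeR adjusted p = 3.41e-10).

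A group of 4 genes was taken by rule, the called genes of largest fold change in each direction with 10 CPM or more at the higher stage, 10 reads or more at the lower one and no overlap between libraries. LOC112573645 had 2766, 3820.4 and 3429 CPM in the Stage 3 libraries, against 3.998, 3.38 and 7.55 CPM in Stage 2. The stages lay far apart, with a log2 fold change of 9.38 with an SE of 0.406 (edgeR adjusted p = 4.95e-16). At every later stage its mean was above that of Stage 3, between 4111 ± 1747 CPM at Stage 9 and 7686 ± 1119 CPM in the hatchling (n = 4 each). The difference between the hatchling and Stage 4 missed the threshold (log2 ratio 0.50 with SE 0.257, edgeR adjusted p = 0.071).

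LOC112571323 had 188, 98.7 and 105 CPM at Stage 3, against 0.302, 0.0637 and 0.323 CPM at Stage 2, where it rests on 10 reads in all. Its log2 fold change was 9.15 with an SE of 0.388 (edgeR adjusted p = 4.75e-16). Its level was 357 ± 20.4 CPM at Stage 4, 408 ± 49.4 CPM at Stage 7 (n = 3 each) and 192 ± 30.99 CPM in the hatchling (n = 4). The hatchling was lower than Stage 4 (log2 fold change -0.90, edgeR adjusted p = 7.64e-05), though far above Stage 2.

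LOC112553858 was the steepest fall, with 52.9, 39.9 and 28.3 CPM at Stage 3 against 735, 544 and 426 CPM at Stage 2. Its log2 fold change was -3.82 with an SE of 0.288 (edgeR adjusted p = 2.53e-11). The decline did not end there, since the gene stood at 3.95 ± 1.65 CPM at Stage 4, 0.626 ± 0.132 CPM at Stage 5 and 0.331 ± 0.144 CPM at Stage 6 (n = 3 each). In the hatchling it was at 0.0548 ± 0.103 CPM (n = 4), lower than Stage 4 by edgeR (adjusted p = 2.24e-11).

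LOC112567077 had 2.36, 2.07 and 1.79 CPM at Stage 3, against 36.9, 31.7 and 14.3 CPM at Stage 2. The log2 fold change was -3.73 with an SE of 0.43 (edgeR adjusted p = 6.05e-08). It took another course later, with 0.278 ± 0.138 CPM at Stage 4 (n = 3) and 1.83 ± 0.254 CPM in the hatchling (n = 4). The hatchling was higher than Stage 4 (log2 fold change 2.69, edgeR adjusted p = 9.77e-06) but stood far under the Stage 2 libraries.

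The genes that moved most RNA were others, apart from LOC112573645, and they were named after their values were seen. LOC112575079 had 2653, 2505 and 2834 CPM at Stage 3, against 545, 602 and 905 CPM at Stage 2 (log2 ratio 1.96 with SE 0.2, edgeR adjusted p = 6.66e-09). It kept climbing and reached 12385 ± 1850.1 CPM at Stage 9 (n = 4). LOC112566026 had 3683, 3846 and 3545 CPM at Stage 3, against 1775, 2077 and 2166 CPM at Stage 2 (log2 ratio 0.88 with SE 0.259, edgeR adjusted p = 0.00756). Its mean was highest at Stage 3 and had come down to 878 ± 248 CPM in the hatchling (n = 4), lower than at Stage 4 (log2 fold change -1.81, edgeR adjusted p = 8.61e-08).

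The 3 largest losses were in abundant genes and were small as fold changes. LOC112574335 had 7839, 7913 and 8078 CPM at Stage 3, against 12525, 11169.8 and 11195 CPM at Stage 2, a log2 fold change of -0.55 with an SE of 0.0757 (edgeR adjusted p = 1.11e-06). LOC112562047, the most abundant gene of both stages, had 13311, 12836 and 13074 CPM at Stage 3, against 16144, 16467 and 16030.4 CPM at Stage 2 (log2 ratio -0.31 with SE 0.0618, edgeR adjusted p = 0.000183). LOC112573974 had 5558, 5276 and 5472 CPM at Stage 3, against 7812, 7824 and 6667 CPM at Stage 2 (log2 ratio -0.45 with SE 0.0817, edgeR adjusted p = 5.54e-05). In none of the 3 did the stages overlap, and all 3 were lower again in the hatchling than at Stage 4, with log2 fold changes of -1.45, -1.40 and -2.54.

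A pair of genes chosen by rule after the values were seen shows courses that turned round. They are the called genes, changed by 2-fold or more without overlap, with the largest change in CPM among those whose hatchling level lay nearer to Stage 2 than to Stage 3. LOC112570174 had 2158, 1437 and 1754 CPM at Stage 3, against 368, 366 and 490 CPM at Stage 2 (log2 ratio 2.13 with SE 0.379, edgeR adjusted p = 4.69e-05). With the hatchling used in the choice, its later level is a description. It was 1576 ± 541 CPM at Stage 4 (n = 3) and 669 ± 131 CPM in the hatchling (n = 4).

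LOC112553390 had 115, 116 and 103 CPM at Stage 3, against 335, 366 and 275 CPM at Stage 2 (log2 ratio -1.55 with SE 0.156, edgeR adjusted p = 6.07e-09). It was lowest at Stage 7, at 58.2 ± 7.81 CPM (n = 3), and its means were higher again at the later stages, at 322 ± 47.7 CPM in the hatchling (n = 4). That is close to the 325 ± 46.2 CPM of Stage 2 (n = 3). Its hatchling level also entered the choice and is given without a test.

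**Figure D3:**
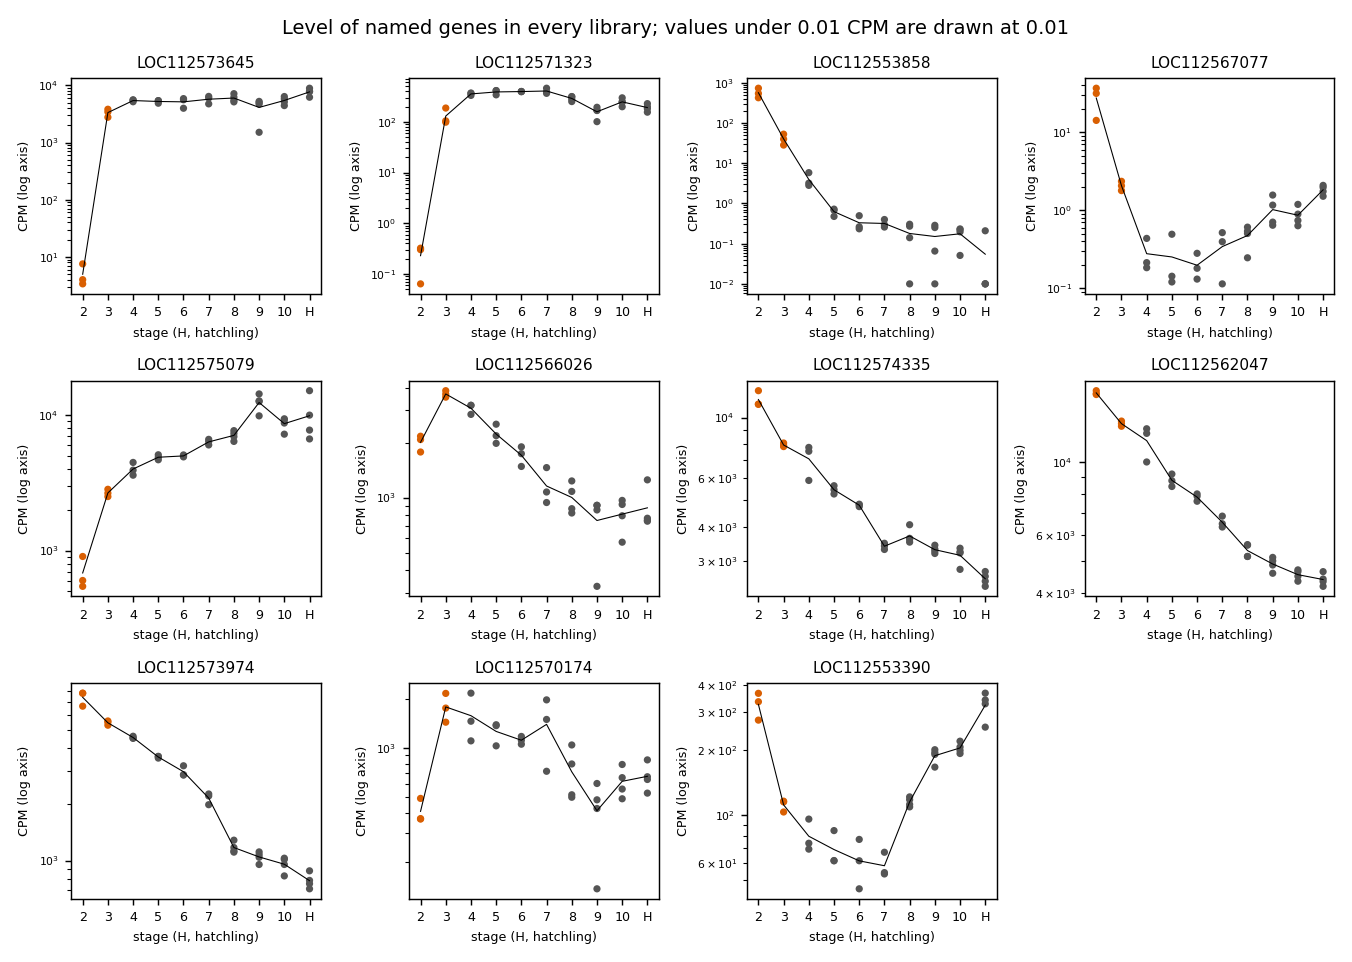
Each panel shows 1 named gene, with the stages from Stage 2 to the hatchling on the horizontal axis and CPM in every library as points on a log axis. Orange points are the libraries of Stage 2 and Stage 3, grey points all other stages, and the line joins the stage means. LOC112573645 and LOC112571323 stayed high after Stage 3, LOC112553858 went on down, and LOC112553390 returned to its Stage 2 level in the hatchling.

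Genes that changed at this step had neighbours that changed with them more often than the share over all neighbour pairs. In the gene order of RefSeq assembly ASM307304v1, which may not be the build behind the counts, the next tested gene also rose 2-fold or more for 404 of 1928 genes that did so. This is 21%, against 11.1% over all 17426 pairs. For falls of 2-fold or more it was 29 of 427 genes, or 6.79%, against 2.46%. Part of these 29 come from a single run of 8 genes, described below, and only 3 runs of falls held 3 genes or more. No test was made, since neighbours can share reads.

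The longest run of neighbours that rose 2-fold or more held 7 genes, from LOC112570126 to LOC112570092. Their summed level was 68.5, 79.0 and 83.03 CPM in the Stage 3 libraries, against 18.2, 28.8 and 31.7 CPM in Stage 2. Log2 fold changes ran from 1.22 to 2.83, and the highest edgeR adjusted p was 0.000287. The sum was 313 ± 31.3 CPM at Stage 10 and 296 ± 39.6 CPM in the hatchling (n = 4 each), most of it from LOC112570126 (118 ± 12.5 CPM in the hatchling) and LOC112570080 (128 ± 20.99 CPM). The genes parted later, since LOC112570092 was lower in the hatchling than at Stage 4 (log2 ratio -1.10, edgeR adjusted p = 0.00135), while LOC112566590 and LOC112570043 did not pass the test (log2 ratio -0.22 for both, edgeR adjusted p = 0.377 and 0.300). The other 4 were higher, by log2 ratios of 0.55 to 2.05. Against a 2-fold minimum the first-step calls of LOC112570080, LOC112570025 and LOC112570107 were lost (edgeR adjusted p = 0.162, 0.420 and 0.291).

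The longest run of falls held 8 genes with identifiers from LOC112571990 to LOC112571997. Their summed level was 14.4, 13.4 and 27.1 CPM in the Stage 3 libraries, against 151, 98.7 and 133 CPM in Stage 2. The stages did not overlap in any of the 8 genes. LOC112571990 had 1 read at Stage 3 and 12 at Stage 2, and the other 7 had log2 fold changes from -3.10 to -2.60 (highest edgeR adjusted p = 0.0199).

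LOC112571995 was the most abundant of these 8, with 6.58, 5.48 and 7.84 CPM at Stage 3, against 59.7, 29.7 and 47.5 CPM at Stage 2. When replicate 3 of Stage 3 was left out, LOC112571993 had a log2 fold change of -3.39 in place of -2.60, that of LOC112571992 -3.56 in place of -2.94 and that of LOC112571991 -3.59 in place of -2.93. The call of LOC112571992 was lost without replicate 1 or 2 of Stage 3 or replicate 2 of Stage 2 (edgeR adjusted p = 0.0629, 0.0887 and 0.0696). That of LOC112571991 was lost without replicate 2 of Stage 3 (0.0613), and that of LOC112571990 without any one library apart from replicate 3 of Stage 3. Against a 2-fold minimum these 3 genes were not called (edgeR adjusted p = 0.167, 0.102 and 0.268 in the same order). Later the summed level varied widely within stages, from 20.97 to 81.3 CPM among the Stage 4 libraries and from 4.79 to 56.5 CPM at Stage 9. Reads shared between near-identical copies cannot be told apart here.

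The later course of the called genes was first described by their levels, with no test, because the calls rest on the same Stage 2 and Stage 3 libraries. The median level of the genes that rose was 21.2 CPM at Stage 4 and went up to 29.4 CPM in the hatchling. That of the genes that fell was 44.5 CPM at Stage 4 and went down to 28.3 CPM in the hatchling. The 2 medians crossed between Stage 9 and Stage 10, at 29.3 CPM for the rises and 29.1 CPM for the falls at Stage 10. Over all tested genes the median was 12.8 CPM at Stage 4 and 18.2 CPM in the hatchling.

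Among the genes that rose, 1082 reached their highest mean in the hatchling (27.3%, against 30.5% of all tested genes) and 730 at Stage 3 itself (18.4%, against 9.2%). Where the rise was 2-fold or more, 713 peaked in the hatchling (36.9%) and 174 at Stage 3 (9.01%). Of the genes that fell, 2155 had their highest mean at Stage 2 (76%, against 22.3%) and 1403 their lowest in the hatchling (49.5%, against 25.1%). The falls of 2-fold or more differed in this, with 211 of 429 highest at Stage 2 (49.2%), 145 highest in the hatchling (33.8%) and 34 lowest in the hatchling (7.93%). The excess of highest means at Stage 3 among all rises, and at Stage 2 among the falls, follows in part from the calling. It is no result about these genes.

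**Figure D4:**
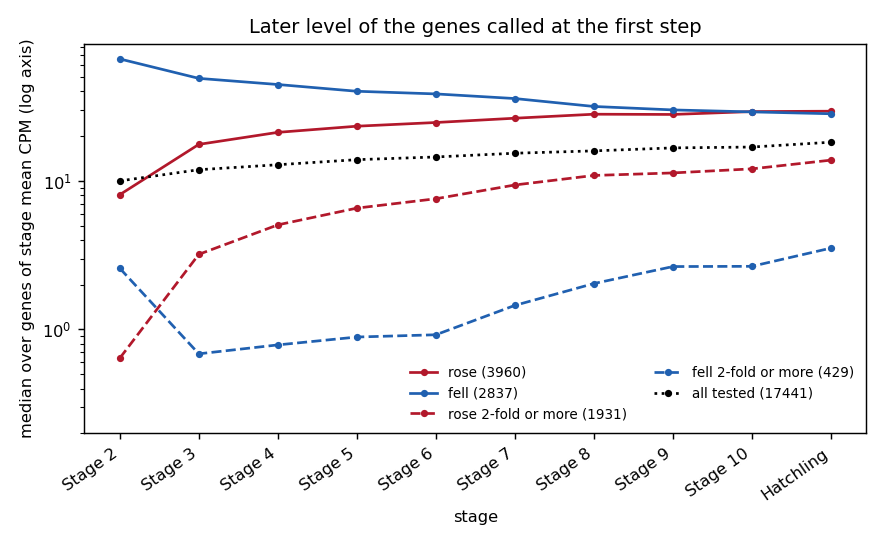
Lines give the median over genes of the stage mean CPM, on a log axis, for the groups called at Stage 3 against Stage 2 and for all tested genes, with the number of genes in the legend. The solid lines of rises (8.07 CPM at Stage 2) and falls (66.1 CPM at Stage 2) approach each other and cross before Stage 10.

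Large rises of well-read genes mostly lasted. The 1203 genes of 1 CPM or more that rose 2-fold or more were placed on a log2 scale on which 0 is the level of Stage 2 and 1 that of Stage 3, after adding 0.1 CPM. Their median position was 1.15 at Stage 4, 1.25 at Stage 6 and 1.40 in the hatchling. In 877 of them (72.9%) every later stage lay nearer to Stage 3 than to Stage 2. In the hatchling 566 (47%) lay beyond 1.5, 434 (36.1%) between 0.5 and 1.5, and 203 (16.9%) below 0.5, nearer to Stage 2. No background share stands beside these counts. Genes not called at the first step moved later too, with 52.8% higher and 29.1% lower in the hatchling than at Stage 4.

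Large falls were more mixed. The 258 genes of 1 CPM or more that fell 2-fold or more had a median position of 1.18 at Stage 4, 1.15 at Stage 6 and 0.71 in the hatchling. In the hatchling 116 of them (45%) lay nearer to Stage 2, and 69 (26.7%) had fallen on beyond 1.5. In 124 (48.1%) every later stage lay nearer to Stage 3. With genes under 1 CPM included, 270 of 429 (62.9%) lay nearer to Stage 2 in the hatchling. These counts too have no background share beside them, and the difference from the rises was not tested.

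Contrasts that share no library with Stage 2 or Stage 3 were then read for the same groups. The hatchling was called higher than Stage 4 in 47.4% of all tested genes and lower in 35.9% (edgeR quasi-likelihood test). Of the genes that fell at the first step, 711 (25.1%) were higher and 1768 (62.3%) lower in the hatchling. Of the genes that rose, 1942 (49%) were higher and 1400 (35.4%) lower, close to the shares over all genes. That closeness did not hold in every class of level, as given below. Under RLE the genes that fell were lower in 57.2% of cases, against 31.7% of all genes, and with library totals in 55.6%, against 29.3%. In this contrast all tested genes had a median log2 fold change of 0.30 with TMM, 0.47 with RLE and 0.56 with library totals.

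These shares differed with level, so they were also read within classes of the mean CPM over all 34 libraries. That mean includes the Stage 4 and hatchling libraries compared here, and the Stage 2 and Stage 3 libraries of the call. The classes are thus not an independent control for level. The filter worked by stage, so genes of low mean may have passed only through the stage where they were high. At 1000 CPM or more, 57 of the 58 genes that fell were lower in the hatchling than at Stage 4 (98.3%, against 84.8% of all 92 genes there), and 10.9% of those 92 were higher. At 100 to 1000 CPM it was 84%, against 67.3%, and at 10 to 100 CPM 66.7%, against 49.1%. The genes that rose, by any factor, were higher in 46.8% of cases at 10 to 100 CPM, against 35.8%. At 100 to 1000 CPM they were higher in 32.3%, against 23.5%, and at 1000 CPM or more in 7 of 15 genes (46.7%, against 10.9%). At 1 to 10 CPM the share was 64.8%, against 69.1%, and under 1 CPM 56.4%, against 68.2%. Genes that rose 2-fold or more were higher in the hatchling in 63.5% of cases at 10 to 100 CPM, against 35.8%, and in 57% at 100 to 1000 CPM, against 23.5%. At 1 to 10 CPM they were higher in 67.1%, against 69.1% of all genes of that class, which is no result about them. Under 1 CPM they were higher in 56.4%, against 68.2%, and lower in 17.9%, against 6.1%.

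The falls of 2-fold or more were higher in the hatchling than at Stage 4 in 273 of 429 genes, or 63.6%. At a mean of 1 to 10 CPM over all libraries the share was 72.3%, against 69.1% for all genes of that class, and under 1 CPM it was 58.3%, against 68.2%. Under 1 CPM 9.17% of them were lower, against 6.1%. At 10 to 100 CPM it was 46 of 87 genes (52.9%), against 35.8%. Among the 12109 genes with 1 CPM or more over the 6 libraries, 49.6% of the falls of 2-fold or more were higher in the hatchling, against 31.2%, and 23.6% were lower, against 50.7%. That background was not matched for level. These falls were low, with a median of 8.18 CPM at Stage 2 and 2.74 CPM at Stage 3, so their level may enter the difference. The difference between these classes was not tested.

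Single later steps gave the same picture for the falls, though here the shares over all tested genes were not matched for level. At Stage 5 against Stage 4, 877 of the genes that had fallen were lower again (30.9%, against 10.7% of all tested genes) and 163 were higher (5.75%, against 12%). Over all genes of 1 CPM or more in the 6 libraries, 15.2% were lower and 9.76% higher at that step. At Stage 8 against Stage 7, 39% of the genes that had fallen were lower, against 23.2%, and 13.9% were higher, against 22.9%. The genes that had risen were higher at Stage 5 in 788 cases (19.9%, against 12%) and lower in 236 (5.96%, against 10.7%). At Stage 8 against Stage 7 their shares lay nearer to the background, with 24.5% higher and 22.8% lower.

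Among the genes of 1 CPM or more, those that had risen 2-fold or more were higher again at Stage 5 in 273 of 1203 cases (22.7%, against 9.76%) and lower in 31 (2.58%, against 15.2%). Those that had fallen 2-fold or more were lower again in 26 of 258 cases (10.1%, against 15.2%) and higher in 22 (8.53%, against 9.76%). The steeper falls thus did not stand above the background at that step.

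The steps from Stage 5 to Stage 6 and from Stage 9 to Stage 10 moved few genes of any kind. At Stage 6 against Stage 5, 33 of the genes that had fallen were lower (1.16%, against 0.321% of all tested genes) and 36 higher (1.27%, against 3.1%). At Stage 10 against Stage 9, 110 were lower (3.88%, against 2.51%) and 29 higher (1.02%, against 2.64%). Stage 9 against Stage 8 moved more, with 2169 of all tested genes higher and 1773 lower. There 436 of the genes that had fallen were lower (15.4%, against 10.2%), and of the genes that had risen 540 were lower too (13.6%).

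**Figure D5:**
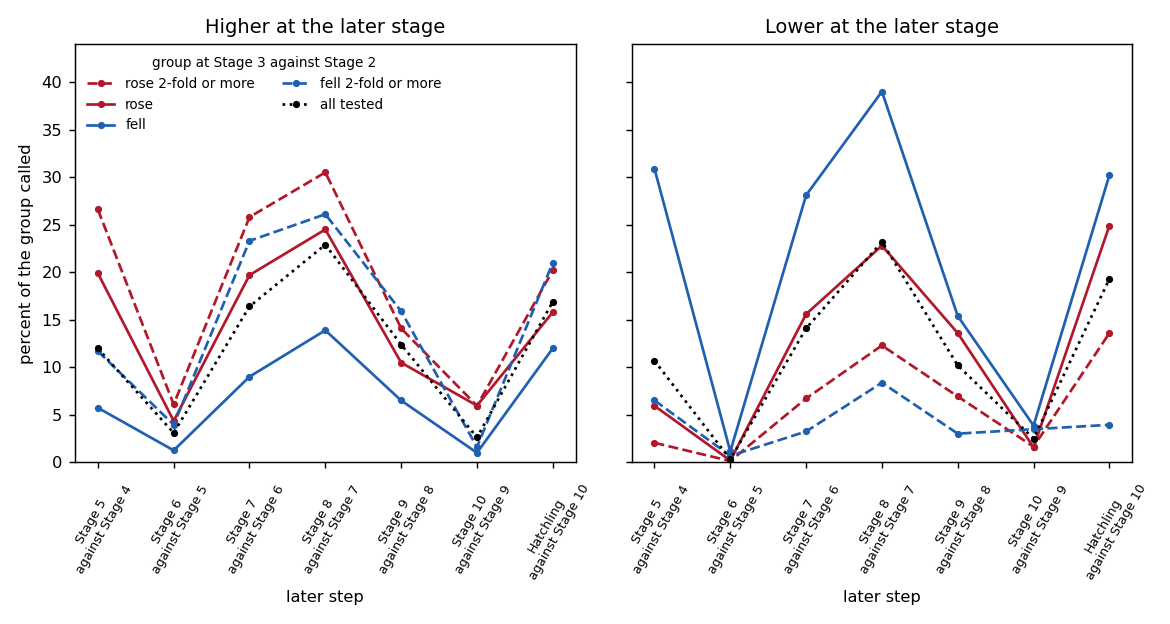
For each later step that shares no library with Stage 2 or Stage 3, lines give the percent of genes called higher (left) or lower (right) at the later stage, for groups defined at Stage 3 against Stage 2 and for all tested genes. On the right the genes that fell (solid blue) lie above all tested genes (dotted) at every step, with 30.9% against 10.7% at Stage 5 against Stage 4. The groups were not matched for level.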

How the data were processed

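Whole-number read counts per gene were deposited by the authors in a single table, without scaling. The submitters' processing notes name STAR. Not given in the sources used here are its version, the counting settings, strandedness, genome build and annotation. All 21131 identifiers matched RefSeq assembly ASM307304v1, which was used only for names and gene order. The members and lists were chosen with earlier results of these data known.

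The filter filterByExpr (minimum count 10, by stage) kept 17441 genes. Counts were scaled by TMM and fitted with edgeR 4.0.16 (quasi-likelihood, R 4.3.3) with 1 coefficient per stage over all 34 libraries, leaving 24 residual degrees of freedom. P-values were adjusted by Benjamini-Hochberg over all tested genes, with a threshold of 0.05. Standard errors were derived from the F statistic. Alternatives were DESeq2 1.42.0, limma-voom (limma 3.58.1), other scalings, no filter, the 6 libraries alone, a 2-fold minimum, a replicate block and leaving out libraries. With no product names or sequences, the rule named 2 genes up and 2 down. Protein pattern groups could not be formed. Intervals and floors cover counting error only.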

Additional observations from a re-analysis of the deposited data

Results flagged for a closer look

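A single library stood apart from the other 3 of its stage, by Dixon's criterion, in 4 of 56 groups (14 named genes at Stage 8, Stage 9, Stage 10 and the hatchling). Chance flags about 5% of groups. Replicate 1 of Stage 9 had 1511 CPM of LOC112573645, against 4694 to 5241 CPM in the other libraries of that stage, and 326 CPM of LOC112566026, against 855 to 906 CPM. Replicate 4 of the hatchling had 1249.5 CPM of LOC112566026, against 742 to 770.3 CPM in the others. It also had 0.209 CPM of LOC112553858, against 0 to 0.00984 CPM. Groups of 3 libraries, Stage 3 and Stage 2 among them, were not examined in this way.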

How the results depend on the processing

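Against a 2-fold minimum (edgeR), 1082 genes were called, 980 higher and 102 lower at Stage 3, so that 90.6% rose. By the same test the hatchling was higher than Stage 4 in 33.5% of all tested genes and lower in 15.4%. Of these rises 43.9% were higher and 10.5% lower, and of the falls 45.1% were higher and 10.8% lower. Rises made up 49.3% of the calls with RLE and 49.1% with DESeq2, in place of 58.3%, which turned the excess into one of falls. Among genes of 1 CPM or more, an alternative chosen after seeing the data, 1203 rises and 258 falls of 2-fold or more remained, and 23.6% of those falls were lower in the hatchling than at Stage 4. With the 6 libraries fitted alone, 5013 genes were called in place of 6797, 2671 higher and 2342 lower at Stage 3. Leaving out 1 library gave 5798 to 6429 calls, and the pool shift ran from 11.4% to 12.8%. The gain in detected genes ran from 525 to 643 genes. Another 258 values of these counts and shares were not marked as moved or reversed under the settings tried. That sorting was not a test. It passed the 5013 calls of the 6 libraries alone, and 1946 falls with library totals in place of 2837.

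With the replicate number as a block, 6681 genes were called in place of 6797. The labels do not say that a number marks a shared clutch. Deviations from the stage means of same-numbered libraries correlated at 0.50, -0.16 and 0.09 for replicates 1, 2 and 3, so the numbers were not taken as pairs, and not every library correlated best with its own number. The 2-fold minimum ended the calls of LOC112566026, LOC112574335, LOC112562047 and LOC112573974 (adjusted p = 1 for each) and of 6 genes in the runs of neighbours, LOC112570080, LOC112570025, LOC112570107, LOC112571990, LOC112571992 and LOC112571991. No named gene changed direction under any of these settings. Depth limits the genes under 1 CPM, where a change rests on few reads.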
